A study of Mus musculus with 8 samples.

Results

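The genes described here encode the proteins of the cytosolic ribosome. They were taken by symbol, as every transcript named Rpl or Rps with a number, together with Rplp0, Rplp1, Rplp2 and Rpsa, and without the Rps6k kinases. The rule found 86 genes among the 13558 transcripts of the deposited table. Of these, 46 encode proteins of the large 60S subunit, 31 encode proteins of the small 40S subunit and 8 are paralogues, that is, further gene copies of a subunit protein. The remaining gene, Rps19bp1, fits the symbol rule but encodes a binding partner of Rps19 and no subunit protein.

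Poly(A) RNA of mouse embryonic stem (mES) cells, male and of strain C57BL/6, gave 8 libraries, 4 of Trim71 -/- cells (KO) and 4 of Trim71 fl/fl cells (WT). Trim71 is an RNA-binding ubiquitin ligase of stem cells and embryos. In both groups exon 4 of Trim71 was flanked by loxP sites and the cells carried a 4-hydroxytamoxifen-inducible Cre (CreERT2) at the Rosa26 locus, and WT cells were the same conditional cells without the recombination. Per the labels, KO cells had been given 500 nM 4-hydroxytamoxifen for 2 days and were then grown for 7 days or longer, whereas the study's methods give a lower dose and a shorter further culture. The study's methods describe a solvent control for the WT cells. All cells were grown with serum and LIF and were sorted for SSEA-1, a surface marker of undifferentiated cells, before harvest. KO replicates 1 to 3 (days 2, 3 and 4) and WT replicates 2 and 3 (days 3 and 4) came from clone E3. KO replicate 4 (day 5) and WT replicates 1 and 4 (days 1 and 5) came from clone 1, so each genotype rests on 2 clones. The labels do not state from what the day was counted, nor that the samples of a group were separate cultures, and p-values therefore measure the spread between these samples.

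The deleted gene checked the labels. Trim71 had 500.3, 793, 733 and 247 normalized read counts in the KO libraries and 2782, 2736, 1988 and 2584 in the WT libraries (values are given in the order of the replicate numbers throughout), a log2 fold change of -2.39 (limma unadjusted p = 0.0002, adjusted p = 0.294). The depth, recovered from the steps between the deposited values, ran from 7539549 reads in WT replicate 2 to 27842309 in WT replicate 3. Summed values of 5 pluripotency markers were 44454 to 55170 in KO and 41445 to 50360 in WT. The culture medium had been conditioned by embryonic fibroblasts, and of 7 fibroblast markers 3 were in the table and summed to 89.5 to 170 in KO and 67.9 to 139 in WT. The primitive endoderm list (5 of 5 markers) summed to 227 to 510 in KO and 56.7 to 387 in WT, and the neural list (4 of 4) to 712 to 983 and 850 to 1504. Their part in the results below was not tested. In bulk RNA, fewer cells of a type and less RNA per cell cannot be told apart.

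A cytosolic ribosome joins a 40S subunit, which reads the mRNA, to a 60S subunit, which forms the peptide bond. Each subunit holds most of its proteins in a single copy, and surplus free proteins are degraded in the cell. Ribosomal protein mRNAs are known for a 5′ terminal oligopyrimidine (TOP) tract, a C followed by an unbroken run of C and T at the transcription start, through which mTOR and the RNA-binding protein Larp1 set their translation. Fast-growing cells spend a large part of their translation on making ribosomes.

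The bases around the annotated starts are shown for 8 of these genes because the TOP tract is the sequence feature the family is known for. Each line gives 10 bases before and 20 bases from the RefSeq start of the GRCm38 assembly on the strand of the gene, with capitals for a C followed by 4 or more bases that are C or T. The first 5 hold such a run and the last 3 do not.
Rpl35, chr2:39005112-39005141, minus strand: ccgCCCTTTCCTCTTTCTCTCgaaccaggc
Rps10, chr17:27635225-27635254, minus strand: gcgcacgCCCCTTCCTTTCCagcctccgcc
Rplp2, chr7:141447641-141447670, plus strand: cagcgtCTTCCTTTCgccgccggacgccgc
Rpl27a, chr7:109519185-109519214, plus strand: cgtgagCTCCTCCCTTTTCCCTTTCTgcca
Rps6, chr4:86857348-86857377, minus strand: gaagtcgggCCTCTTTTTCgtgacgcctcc
Rpl27, chr11:101442235-101442264, plus strand: ctgttcctgtctgctgctcgtgctgctaat
Rpl41, chr10:128549149-128549178, minus strand: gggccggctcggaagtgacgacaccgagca
Rps16, chr7:28350679-28350708, plus strand: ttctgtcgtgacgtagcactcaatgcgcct

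An annotated start need not be the start that the cells use. For Rpl27, the GENCODE gene model begins at base 101442298 of chromosome 11, downstream of the RefSeq window shown. Within 20 bases on either side of a RefSeq start, the letters CTTTC stood on the sense strand in 29.2% of the 65 ribosomal protein genes with a RefSeq window. The share was 5.7% of the 10158 transcripts of the table with such a window and 4.4% of 68 mitochondrial ribosomal protein genes. On the antisense strand the same letters stood in 6.2% of the ribosomal protein genes and 4.5% of all. A C followed by 4 or more pyrimidines, which CTTTC also satisfies, stood on the sense strand in 76.9% of the ribosomal protein genes, 52.1% of all and 58.8% of the mitochondrial set. The letters CTTCC, which can lie within such a run, were in 26.2% of the ribosomal protein genes and 13% of all on the sense strand, and in 21.5% and 14.4% on the antisense strand. The family thus carried the sense-strand CTTTC in a larger share of windows than the table as a whole, whereas the antisense shares lay close together.

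The first comparison asked whether these genes differed between the KO and the WT cells. Most of the family was slightly higher in KO, and no single gene passed the test after correction over all transcripts. With limma on log2(value + 1), the scale of every fold change here, with genotype and clone as terms, 78 of 86 genes (90.7%) had a positive log2 fold change, beside 50% of all transcripts. The median log2 fold change was 0.18, which is 13.4% higher in KO, with quartiles of 0.10 and 0.29, beside a median of 0.00 over all transcripts. An unadjusted p under 0.05 was reached by 15 genes (17.4%), against 9.09% of all transcripts. Of these genes, 14 were higher and 1 was lower in KO, against 4.62% and 4.46% of all transcripts. After Benjamini-Hochberg adjustment over the table, 0 of the 86 genes passed 0.05 with limma, or with voom on the recovered reads, where 18 genes, against 9.36% of all transcripts, had an unadjusted p under 0.05. On untransformed values 22 genes were higher with such a p, against 5.8%. The smallest adjusted p in the family was 0.446, and over the whole table, where 0 transcripts passed as well, it was 0.275. The criterion of the study, an unadjusted p under 0.05 with a change of 1.5-fold or more, was met by 1 gene, Rpl39l, against 4.25% of all transcripts. In the 6 libraries of days 3, 4 and 5 with the day as a block, Rpl39l (log2 fold change -2.18) and Rplp2 (0.66) met it. The share of all transcripts that met it there was not determined.

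**Figure D1:**
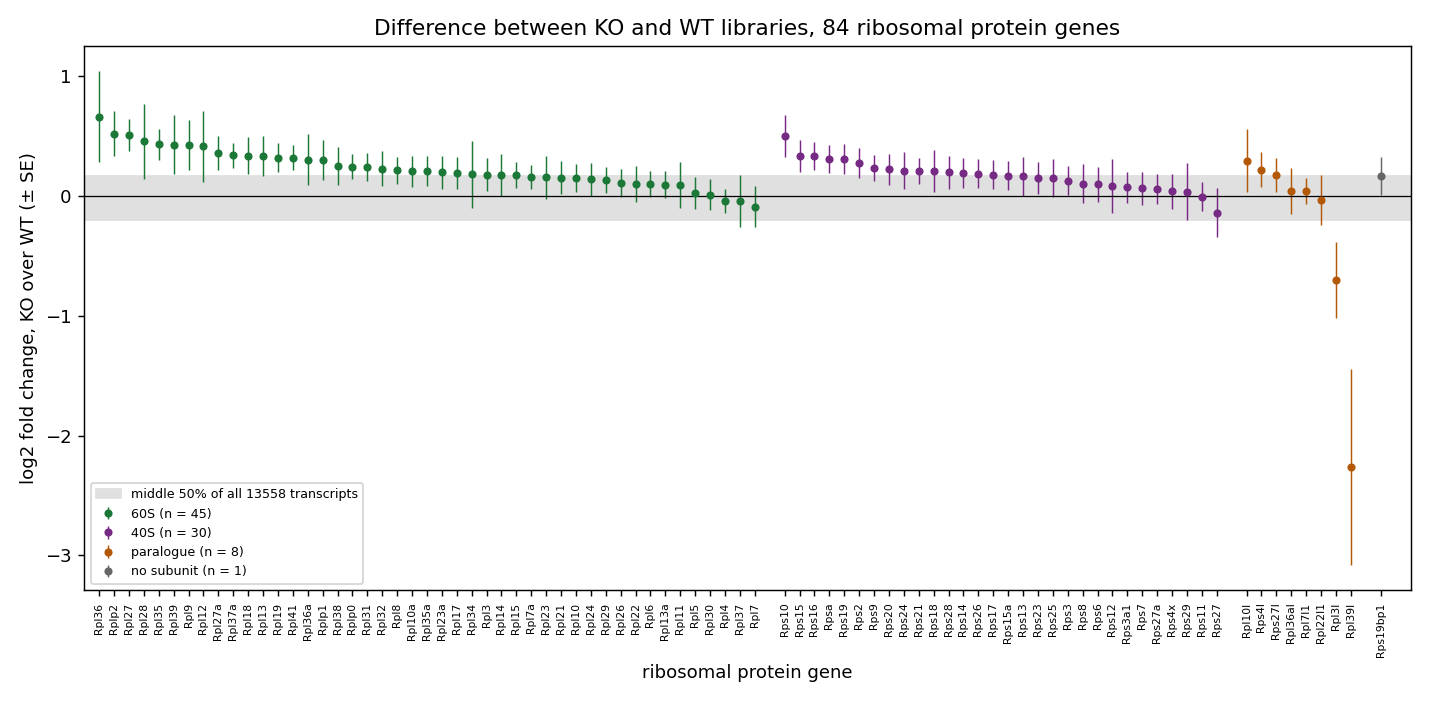
Log2 fold change of KO over WT (± SE) for 84 of the 86 ribosomal protein genes, ordered within the 60S, 40S and paralogue groups, with the middle 50% of all 13558 transcripts as a grey band. The points of both subunits lie mostly above 0, with medians of 0.21 (60S) and 0.18 (40S) over all genes of each, and Rpl39l stands lowest at -2.26.

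Both subunits showed this shift. For the 60S subunit 43 of 46 genes were higher in KO (median log2 fold change 0.21) and 8 had an unadjusted p under 0.05 (17.4%, against 9.09% of all transcripts). For the 40S subunit 29 of 31 genes were higher (median 0.18) and 6 had such a p (19.4%). The 8 paralogues had a median of 0.04, with 5 of 8 higher and 1, Rpl39l, with such a p (12.5%). The groups did not overlap for 19 of the 86 genes, against 10.1% of all transcripts. In all 19 (22.1% of the family) the KO values were the higher ones, against 5.48% of all transcripts, and 0 genes had the WT values above, against 4.62%. With 4 against 4 libraries there are 70 assignments, and the exact two-sided permutation p of such a gene, 0.0286, is the smallest that this design can give. When the clone correction of the authors was undone, 9 genes were without overlap, against 6.83% of all transcripts. Of these, 8 had the KO values above, against 3.56%, and in Rpl39l the WT values were above.

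The share of all deposited values that fell on the family was 2.69%, 2.56%, 2.92% and 2.63% in the KO libraries. In the WT libraries it was 2.37%, 2.21%, 2.44% and 2.40%. Every KO library was above every WT library, and the means were 2.70% ± 0.155 and 2.36% ± 0.101 (SD, n = 4 each). The 60S share was 1.42% ± 0.0782 in KO and 1.25% ± 0.0465 in WT, and the 40S share was 1.15% ± 0.0812 and 0.993% ± 0.0568. Counted as recovered reads before the clone correction, the share of the family was 2.50% to 3.15% in KO and 2.24% to 2.66% in WT, so that the groups overlapped on that scale. Within each clone they did not overlap. Clone 1 had 2.50% in its single KO library and 2.24% and 2.27% in WT. Clone E3 had 2.77% to 3.15% in KO and 2.41% and 2.66% in WT.

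The difference was not equal in all libraries. The median deviation of the 86 genes from each gene's own mean was 0.17, 0.04, 0.11 and 0.04 on the log2 scale in KO replicates 1 to 4. In WT replicates 1 to 4 it was -0.07, -0.14, -0.08 and -0.07. KO replicate 1 was thus the highest and WT replicate 2, which also had the fewest reads, the lowest. Leaving out any 1 library gave a median log2 fold change between 0.15 and 0.23 and between 72 and 81 genes higher in KO. The count of genes with an unadjusted p under 0.05 was less stable. It was 7 without KO replicate 2, 4 without KO replicate 4, 7 without WT replicate 1, 6 without WT replicate 2 and 7 without WT replicate 4, compared with 15 in the full set. The share of all transcripts in these fits was not determined, so the drops cannot be ascribed to the family alone.

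**Figure D2:**
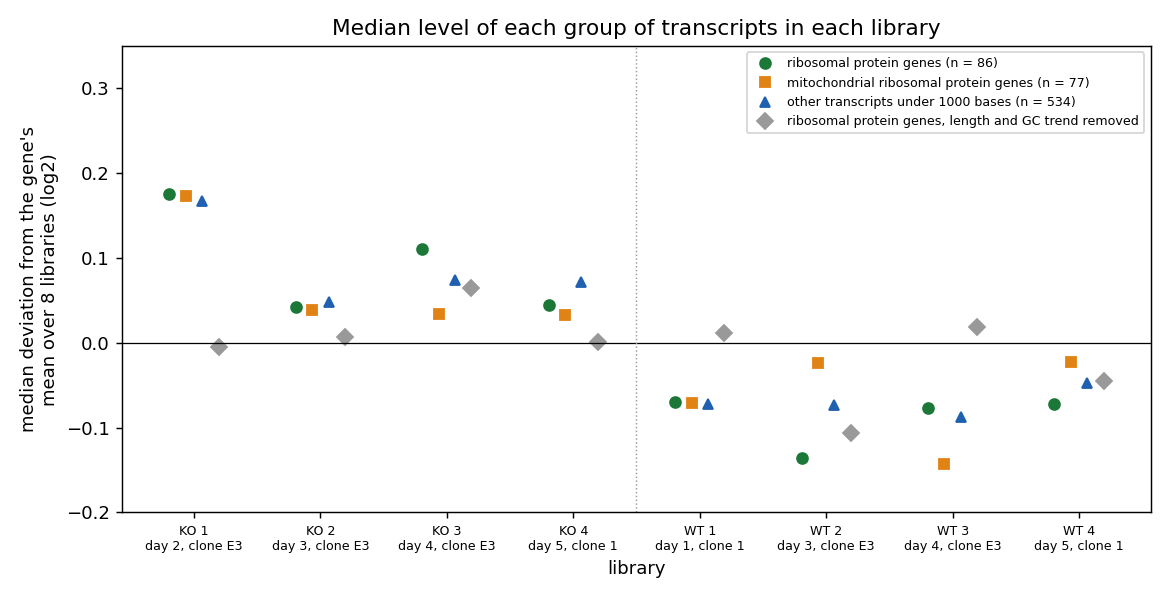
Median deviation from each gene's mean over the 8 libraries (log2) for the ribosomal protein genes, the mitochondrial ribosomal protein genes, other transcripts under 1000 bases and the ribosomal protein genes after removal of a length and GC trend. The family is above 0 in the 4 KO libraries and below 0 in the 4 WT libraries, as are the mitochondrial genes and the other short transcripts, and with the trend removed the KO and WT libraries overlap.

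Ribosomal protein mRNAs are short, and other short transcripts also had a median above 0. The median annotated length was 834 bases for the family and 3014 bases for all transcripts, and 59 of the 86 genes were under 1000 bases. Among the 534 other transcripts under 1000 bases with a mean value of at least 50, the median log2 fold change was 0.165 and 80.9% were higher in KO. Other transcripts of 1000 to 2000 bases had a median of 0.10, those of 2000 to 4000 bases 0.01 and those of 4000 bases or more -0.115. The genes of the family under 1000 bases had a median of 0.19, and the 22 genes of 1000 to 2000 bases had 0.18. When a smooth trend over length and GC content was removed from each library, the family's median log2 fold change was 0.05 and 59 of 86 genes were higher in KO, against 49.1% of all transcripts. On these values 4 genes had an unadjusted p under 0.05, against 9.52% of all transcripts. Rpl27 (log2 fold change 0.34) and Rpsa (0.26) were higher in KO, against 4.42% of all transcripts, and Rpl39l (-2.26) and Rpl3l (-0.86) were lower, against 5.11%. With the day as a block as well, 7 genes had such a p, against 16% of all transcripts. With the trend removed and no block, the share of values held by the family differed by 0.109 percentage points in place of 0.340.

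**Figure D3:**
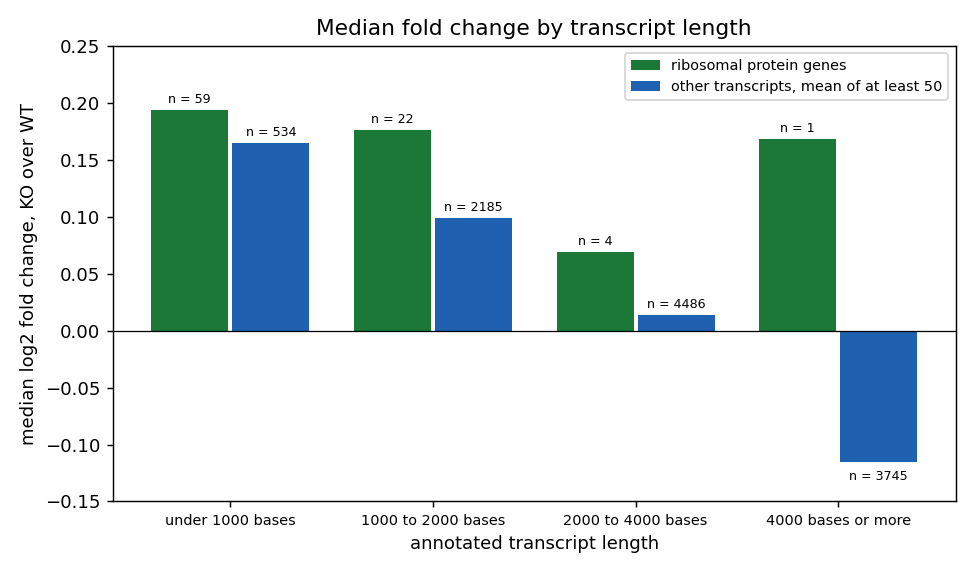
Median log2 fold change of KO over WT by annotated transcript length, for the ribosomal protein genes (green) and other transcripts with a mean of at least 50 (blue), with the number of transcripts on each bar. The blue bars step down from 0.165 under 1000 bases to -0.115 at 4000 bases or more, and the green bar under 1000 bases stands at 0.194.

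Annotated lengths were those of the longest GENCODE transcript with a RefSeq match, which gave Rps15a (5179 bases) and Rps20 (3706 bases), genes of small proteins, unusually long transcripts. Both were in the longer classes, as 2 of the 5 genes of the family there. Other annotated lengths were also far above the family's median of 834 bases, such as those of Rpsa (1938 bases) and Rps3 (1908 bases). With the trend removed, the log2 fold change went from 0.31 to 0.26 for Rpsa and from 0.22 to 0.40 for Rps20. Such values depend on the annotated lengths.

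The labels give the day, and days 3, 4 and 5 each hold 1 KO and 1 WT library of the same clone. On all 3 days 42 of the 86 genes were higher in KO, against 24.6% of all transcripts, and 4 were lower on all 3 days, against 25.5%. With the day as a replicate block in these 6 libraries, 17 genes had an unadjusted p under 0.05, against 19.2% of all transcripts. Of these genes 16 were higher and 1 was lower in KO, against 9.92% and 9.26%. In the same 6 libraries without the block, 6 genes of the family had such a p, and the share of all transcripts was not determined there. Of the 15 genes called in all 8 libraries, 5 were also called in these 6 libraries without the block. A comparison of the block with the 8 libraries therefore also includes the loss of the libraries of days 1 and 2. With the block, 12 of the 15 were called. Rps16 (limma unadjusted p = 0.0584), Rpl27a (limma unadjusted p = 0.083) and Rpsa (limma unadjusted p = 0.0863) were lost, and the genes gained included Rpl18, Rpl9, Rps2 and Rps4l.

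Among the large subunit genes, Rpl27, which encodes a protein of the 60S subunit and has been found mutated in Diamond-Blackfan anaemia, had the smallest p. Its normalized read counts were 1865, 1628, 1697 and 1598 in KO and 1232, 994, 1314 and 1273 in WT. All KO values were above all WT values, and WT replicate 2 was the lowest. The log2 fold change was 0.51 ± 0.14 (SE; limma unadjusted p = 0.00683, adjusted p = 0.446). It was the 1 gene of the family whose unadjusted p stayed under 0.05 in all 8 fits that left out a library, and its log2 fold change in them ran from 0.37 to 0.60. Rpl27 lies at chr11:101442298-101445529 on the plus strand.

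Rpl35, another 60S gene from the anaemia list, had 1807, 1670.3, 1461 and 1568 normalized read counts in KO and 1234, 1052, 1310.5 and 1245 in WT, again without overlap. Its log2 fold change was 0.43 ± 0.13 (limma unadjusted p = 0.0123). It passed in 7 of the 8 fits that left out a library and had limma unadjusted p = 0.0503 without WT replicate 2. Rpl37a, a zinc-finger protein of the 60S subunit, was evenly higher, with 291, 288, 269 and 288 in KO and 209, 234, 218 and 236 in WT. Its difference was 0.30, 0.31 and 0.28 on the log2 scale on days 3, 4 and 5, and the fitted value was 0.34 ± 0.11 (limma unadjusted p = 0.0137).

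Rpl41 encodes the smallest protein of the ribosome, a short basic peptide. It had 10892, 12683, 12331 and 11973 normalized read counts in KO and 9555, 9502, 9677 and 9617 in WT. The WT libraries lay close together and every KO library lay above them. The log2 fold change was 0.32 ± 0.11 (limma unadjusted p = 0.0182), and 0.07 with the length and GC trend removed. Rpl19, long used as a reference gene in expression studies, had 3643, 3052, 3456 and 3153 in KO and 2696, 2428, 2733 and 2810.4 in WT. It was 24.9% higher in KO (log2 fold change 0.32 ± 0.12, limma unadjusted p = 0.029), without overlap. Rpl27a, a further 60S gene whose start is shown above, had 2633, 2607, 2847 and 2369 in KO and 2014.4, 1696, 2166 and 2338 in WT, and on day 5 the difference was 0.02 on the log2 scale.

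The acidic stalk of the 60S subunit, which recruits the translation factors that hydrolyse GTP, is built from Rplp0, Rplp1 and Rplp2. All of them were higher in KO, and 2 of the 3 had an unadjusted p under 0.05, against 9.09% of all transcripts. With the length and GC trend removed, 0 of the 3 had such a p with limma. Rplp2 had 150.1, 225, 155 and 194 normalized read counts in KO and 137, 131, 131 and 99.7 in WT, without overlap. Its log2 fold change of 0.52 ± 0.19 (limma unadjusted p = 0.0271) was the second highest of the family, and its p was under 0.05 in 3 of the 8 fits that left out a library. Rplp0, the protein on which the stalk is anchored, had 16109 to 17851 in KO and 13963 to 15061 in WT (log2 fold change 0.24, limma unadjusted p = 0.0464). Rplp1 had 4582, 5366, 6238 and 6363 in KO and 4573, 4749, 5058 and 3784 in WT, which overlapped (0.30, limma unadjusted p = 0.108).

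Some large positive fold changes of 60S genes came with large errors. Rpl36 had 175, 280.3, 295 and 213 normalized read counts in KO and 178, 73.8, 230.2 and 181 in WT. WT replicate 2 stood far below the other WT libraries, and the groups overlapped. The log2 fold change was 0.66 ± 0.38 (limma unadjusted p = 0.126), and it was 0.16 without WT replicate 2. Rpl28 showed the same picture, with 73.2 in WT replicate 2 and 153 to 175 in the other WT libraries, beside 142 to 209.7 in KO. Its log2 fold change was 0.46 in the full set and 0.02 without that library.

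**Figure D4:**
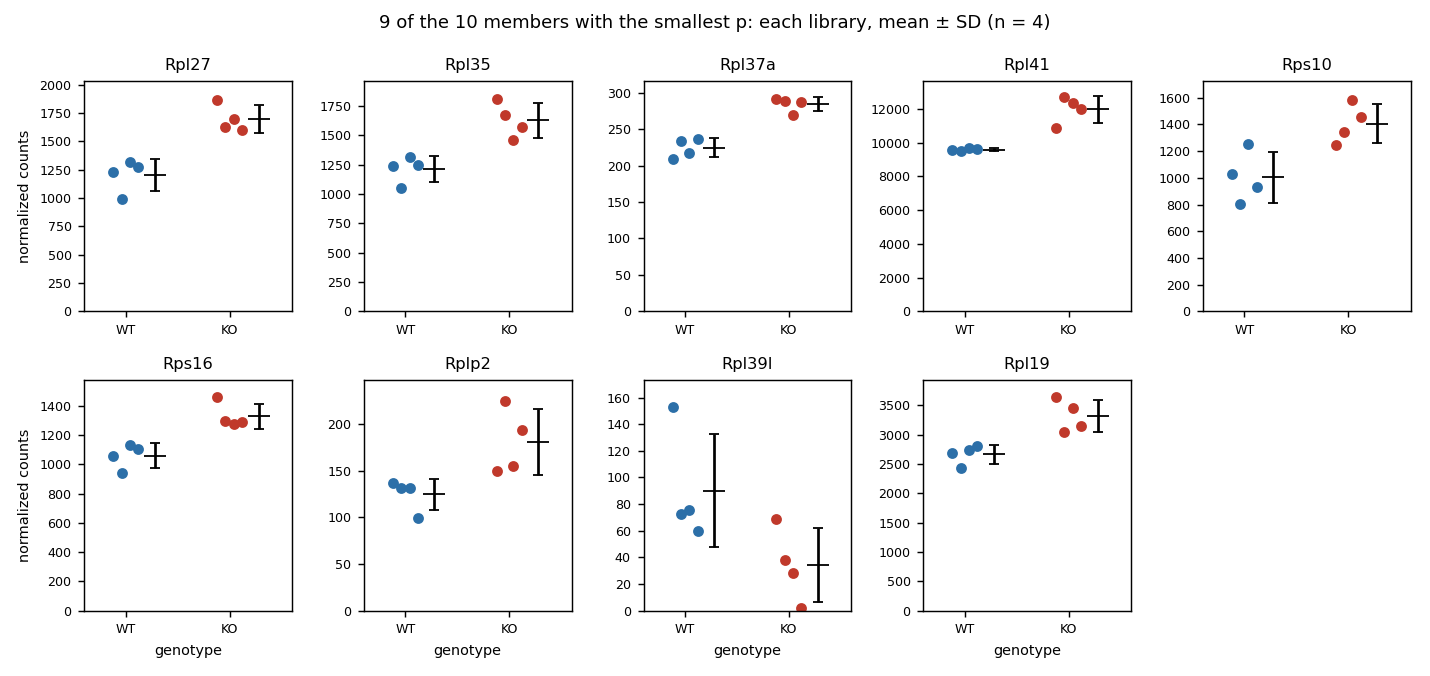
Normalized read counts in each WT (blue) and KO (red) library, with the mean ± SD (n = 4), for 9 of the 10 ribosomal protein genes with the smallest unadjusted p. In 7 panels every KO point lies above every WT point, in Rps10 the highest WT point lies above the lowest KO point, and in Rpl39l the KO points are the lower ones with an overlap.

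In the small subunit, Rps10 had the smallest p. Rps10, a protein at the mRNA entry side that is ubiquitinated on stalled ribosomes, had 1245, 1342, 1581 and 1456 normalized read counts in KO and 1031, 805, 1256 and 929 in WT. WT replicate 3 lay above the lowest KO library, and the exact permutation p was 0.0571. The log2 fold change was 0.50 ± 0.17 (limma unadjusted p = 0.023), and its p was under 0.05 in 5 of the 8 fits that left out a library. With the day as a block it was 0.57 (limma unadjusted p = 0.0092), where 19.2% of all transcripts had a p under 0.05. With the length and GC trend removed and no block it was 0.26 (limma unadjusted p = 0.0866). Rps16, which reaches towards the decoding site, had 1458, 1294, 1276 and 1286 in KO and 1057, 942, 1134 and 1103 in WT. The groups did not overlap, and the log2 fold change was 0.33 ± 0.12 (limma unadjusted p = 0.0253).

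Rpsa, the laminin receptor protein of the 40S subunit, had 8444 to 9816 in KO and 6594 to 7846 in WT (log2 fold change 0.31, limma unadjusted p = 0.0312). Rps15 had 3648 to 4349.9 in KO and 2664 to 3512 in WT (0.33, limma unadjusted p = 0.0391), and its log2 fold change was 0.03 with the length and GC trend removed and -0.02 with the block as well. The groups did not overlap for either gene.

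Mutations in ribosomal protein genes cause Diamond-Blackfan anaemia, a failure of red cell production, and 23 genes of the family were on the list for it. Of these, 22 were higher in KO, the median log2 fold change was 0.21, and 5 had an unadjusted p under 0.05 (21.7%, beside 17.4% of the family and 9.09% of all transcripts), namely Rpl27, Rpl35, Rps10, Rps15 and Rps19. Rps19, the gene most often mutated in that disease, had 1964, 1718, 1980.2 and 1814 normalized read counts in KO and 1499, 1310.3, 1664 and 1585 in WT (log2 fold change 0.31, limma unadjusted p = 0.043). All of its KO values were above its WT values, and its log2 fold change was 0.05 with the length and GC trend removed (limma unadjusted p = 0.666). Rps27 was the exception, at -0.14, with 32.3 to 49.4 in KO and 31.9 to 47.1 in WT. With the length and GC trend removed, 16 of the 23 genes were higher and the median was 0.08. On these values 1 of the 23 had an unadjusted p under 0.05, against 9.52% of all transcripts.

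Rpl5 and Rpl11 form the 5S ribonucleoprotein particle, which binds Mdm2 and stabilises p53 when ribosome assembly fails. Rpl5 had 4205, 3911, 3163 and 3663 normalized read counts in KO and 3708, 3357, 3883 and 3676 in WT. The groups overlapped almost fully, with a log2 fold change of 0.03 (limma unadjusted p = 0.845). Rpl11 had 1205, 1427, 1269 and 1688 in KO and 1253, 1718.5, 1213 and 1097 in WT, with a log2 fold change of 0.09 (limma unadjusted p = 0.659) that differed in sign between day 3 (-0.27) and day 5 (0.62). Rps6, the S6 kinase substrate, had 8601 to 11976 in KO and 8605 to 9814 in WT (0.10, limma unadjusted p = 0.535). Further genes of known function had log2 fold changes from 0.04 to 0.19. Rps3, at the mRNA entry, had 0.13, Rps14 had 0.19, Rps4x had 0.04, Rpl10, which joins the 60S subunit late in its assembly, had 0.15, Rpl3, near the peptidyl transferase centre, had 0.18, and Rpl26 had 0.11. None of these had an unadjusted p under 0.05 with limma, and in Rps14 the KO values lay above the WT values without overlap.

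The ubiquitin fusion genes make a ribosomal protein joined to ubiquitin or a ubiquitin-like protein. Rps27a, the one that the symbol rule takes, had 1664 to 2106 normalized read counts in KO and 1652 to 1933 in WT (log2 fold change 0.06, limma unadjusted p = 0.654). Fau, which carries Rps30, had 1043, 1068, 988 and 987 in KO and 769, 720.1, 841 and 860.3 in WT. The groups did not overlap, and the log2 fold change was 0.36 (limma unadjusted p = 0.0145). With the day as a block, Fau did not have an unadjusted p under 0.05.

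The paralogues were spread more widely than the subunit genes, from -2.26 to 0.29 on the log2 scale. Rpl39l, which in mammals is expressed mainly in the testis and in stem-like cells, encodes a copy of Rpl39, a small protein of the peptide exit tunnel. The coding sequences of the pair are 153 bases long without the stop codon and differ at 23 bases. The first 30 bases are shown, with the 4 bases that differ in capitals, to show how close the pair are at their start.
Rpl39, gene at chrX:37082520-37085402, minus strand: atgTcttctcacaagacTttcCgAatcaag
Rpl39l, gene at chr16:10170226-10174911, plus strand: atgGcttctcacaagacCttcAgGatcaag

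Rpl39l had 69.1, 38.2, 27.9 and 2.27 normalized read counts in KO and 153, 72.7, 75.7 and 59.8 in WT. KO replicate 4, of clone 1, was far below the others at 6 recovered reads, and KO replicate 1 overlapped with WT replicate 4. The log2 fold change was -2.26 ± 0.82 (limma unadjusted p = 0.0271, adjusted p = 0.491). Without KO replicate 4 it was -0.81 (limma unadjusted p = 0.156), and the differences on days 3, 4 and 5 were -0.91, -1.41 and -4.22. The day 5 difference was taken on values that the clone correction had lowered, which enlarges it on the log2 scale at so few reads. With voom on the recovered reads, which precede the clone correction, the log2 fold change was smaller, at -1.57 (voom unadjusted p = 0.0204). The size of the change thus depended on the scale. No 100-base stretch of Rpl39l was found in another annotated gene. Rpl39 itself had 821, 486, 1067 and 765 in KO and 582, 611, 503 and 572 in WT (0.43, limma unadjusted p = 0.126).

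Rpl3l, the copy of Rpl3 used in striated muscle, had 30.4, 18.9, 30.4 and 12.4 normalized read counts in KO and 45.1, 27.8, 31.9 and 35.8 in WT. KO replicate 4 was again the lowest, and the groups overlapped. The log2 fold change was -0.70 ± 0.32 (limma unadjusted p = 0.0614), and -0.19 without that library. Clone 1 had a single KO library, KO replicate 4, so that a difference between clones cannot be told apart from that library. The interaction of genotype and clone was -4.08 for Rpl39l (limma unadjusted p = 0.00249) and -1.43 for Rpl3l (limma unadjusted p = 0.015), where a negative value is a lower KO over WT in clone 1 than in clone E3. They were the 2 genes of the family with an unadjusted interaction p under 0.05, a share close to the 2.59% of all transcripts, and 0 genes passed after adjustment. Both interactions were fitted to the clone-corrected values, at few reads.

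Rpl10l, a retrocopy known from the testis, had 0.29 (159 to 316 normalized read counts in KO, 162 to 262 in WT, limma unadjusted p = 0.302). Rpl22l1, whose product can take the place of Rpl22, had -0.03 while Rpl22 had 0.10. Rps27l, a p53 target gene, had 0.17 while Rps27 had -0.14. Rpl36al had 0.04 while Rpl36a had 0.30, and Rpl7l1 had 0.04 while Rpl7 had -0.09. All values are log2 fold changes, and none of these genes had an unadjusted p under 0.05. Rps4l, a copy of Rps4x, had 0.22 (limma unadjusted p = 0.171) without the block and 0.34 (limma unadjusted p = 0.0185) with it. The remaining gene of the rule, Rps19bp1, had 0.17 (limma unadjusted p = 0.328).

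Although most proteins are present in a single copy per subunit, the measured levels of their mRNAs were far from equal. Per 1000 bases of annotated transcript, the mean over the 8 libraries was 32509 normalized read counts for Rpl8, 24665 for Rpl41, 19460 for Rpl4 and 12638 for Rps3. At the other end it was 28.6 for Rps29, 42.4 for Rpl37, 69.4 for Rps12 and 118 for Rps27. Of the 77 subunit genes, 56 were above 1000 on this scale. Rps29, though its product is part of the 40S subunit, had 6 recovered reads in its lowest library.

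Ribosomal protein genes have many processed pseudogenes, so that a read can match several places in the genome. Of the 77 subunit genes, 72 shared 1 or more 100-base windows, about the length of a read, with another annotated gene, and 70 shared one with an annotated pseudogene. The median share of windows found elsewhere was 41.3%. For Rps27 it was 98.4%, mostly with its retrocopy Rps27rt, and for Rpl5 91.1%. The 8 genes with under 5% of their windows shared had a median level of 6596 per 1000 bases, the 36 genes with 5 to 50% had 2173 and the 33 genes with 50% or more had 1807. The levels nevertheless overlapped widely between these classes, and Rps29 and Rpl37 were low with 24.7% and 21.5% of windows shared. Across the 77 genes, which share libraries, the rank correlation of level per 1000 bases and share was -0.23. The difference between genotypes had median log2 fold changes of 0.21, 0.21 and 0.16 in the 3 classes. The levels of genes with many shared windows are uncertain, because the authors' handling of reads with several matches was not given in the sources used here.

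**Figure D5:**
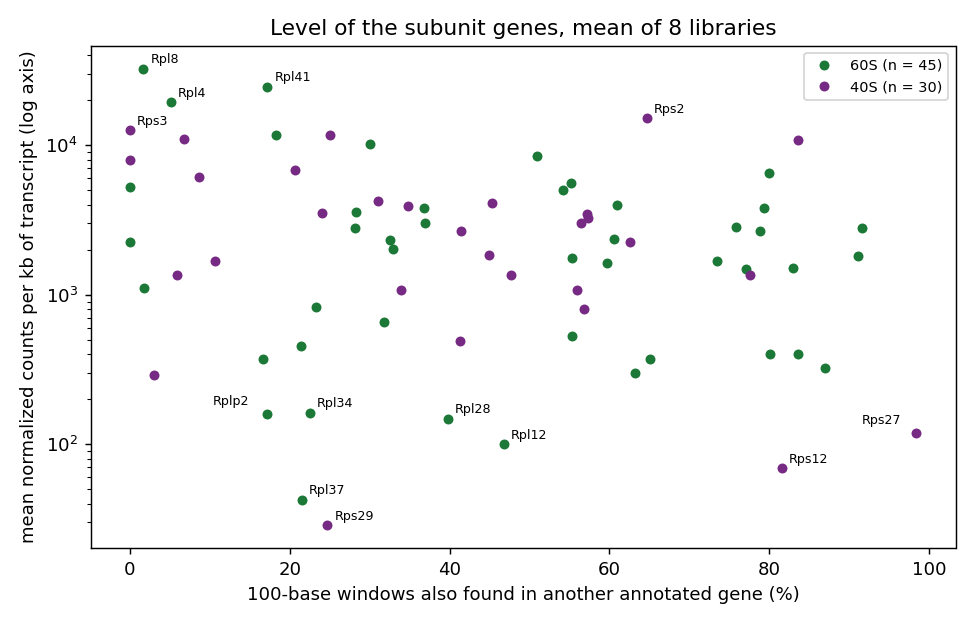
Mean normalized read counts per 1000 bases of transcript (log axis) against the percent of 100-base windows that are also found in another annotated gene, for 45 genes of the 60S and 30 of the 40S subunit. High levels occur from 0% (Rps3) to 83.6% (Rps6) of windows shared, and the named genes with low levels lie between 17.2% (Rplp2) and 98.4% (Rps27).

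Across the subunit genes the rank correlation between level and log2 fold change was -0.12. Genes were also grouped by the sequence at their start. The 19 genes with CTTTC near a RefSeq start had a median log2 fold change of 0.21 (16 higher in KO, 5 with an unadjusted p under 0.05), and the 46 genes without it had 0.17 (43 higher, 9 with such a p), where 9.09% of all transcripts had such a p. Rpl27, Rpl41 and Rps16, whose windows hold no pyrimidine run, were among the 10 genes with the smallest p, as were Rpl35, Rps10 and Rplp2, whose windows hold one.

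Other genes of ribosome production and translation were read from lists. Of the 77 mitochondrial ribosomal protein genes, which serve a separate ribosome and are also mostly short, 68 (88.3%) were higher in KO. Their median log2 fold change was 0.15. Of these, 5 had an unadjusted p under 0.05 (6.49%, against 9.09% of all transcripts), all of them higher. In 13 (16.9%) every KO value was above every WT value, against 5.48% of all transcripts, and in 0 the reverse held. On days 3, 4 and 5 alike 35 were higher, against 24.6% of all transcripts, and 6 lower, against 25.5%. With the length and GC trend removed, the median was 0.07 and 52 of 77 were higher. On these values 4 had such a p, all higher, against 4.42% of all transcripts. On the deposited values, Mrpl33 had the largest log2 fold change, with 731, 554, 459 and 529 normalized read counts in KO and 399, 365, 365 and 410.1 in WT (0.55, limma unadjusted p = 0.0126), and Mrpl30 had the lowest (-0.10).

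Among 19 genes for translation factors and other proteins with known TOP mRNAs, 12 were higher in KO and the median was 0.05. Of these genes, 4 had an unadjusted p under 0.05 (21.1%, against 9.09% of all transcripts), Eef1g, Tpt1 and Fau among them. With the day as a block 1 gene of this list, lower in KO, had such a p, against 19.2% of all transcripts. With the length and GC trend removed, 14 of the 19 were higher and the median was 0.05, beside 0.05 for the ribosomal protein genes. There 0 genes of this list had an unadjusted p under 0.05, against 9.52% of all transcripts. On the deposited values, Tpt1, the translationally controlled tumour protein, had 3084, 2487, 2672 and 2568 in KO and 2090, 2052, 2146 and 2377 in WT (log2 fold change 0.32, limma unadjusted p = 0.0345). The elongation factors Eef1a1 (0.04) and Eef2 (0.05) overlapped between the groups, and Nap1l1, a histone chaperone, had the lowest value (-0.30). The 7 snoRNA host genes, whose spliced exons also begin with TOP tracts, had a median of 0.03, from Gas5 (-0.31) to Snhg3 (0.12), and 0 of them had an unadjusted p under 0.05 with limma.

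The lists for the making of the ribosome had medians near or below 0. The 80 ribosome assembly factors had a median of -0.08 with 31 higher in KO, from Mdn1 (-0.49), the ATPase that remodels 60S precursors, to the nucleolar Npm3 (0.27). None of them had an unadjusted p under 0.05, whereas 17 did with the day as a block, all lower in KO, where the background was 19.2% of all transcripts in either direction and 9.26% lower. The 16 genes of RNA polymerase I transcription had a median of 0.02, from Taf1d (-0.50) to Znrd1 (0.37), and Znrd1 was the one with an unadjusted p under 0.05 (limma unadjusted p = 0.0155). The 7 chaperones and importins of ribosomal proteins had a median of -0.12, from Ipo7 (-0.58, limma unadjusted p = 0.0751) to Aamp (0.17), and 0 had such a p. Of 16 genes of mTOR and Myc control, 8 were higher in KO, the median was -0.005 and 0 had such a p. Myc itself varied widely, with 374, 579, 309 and 594 normalized read counts in KO and 154, 563, 193 and 343 in WT (0.68, limma unadjusted p = 0.185). Mycn had -0.03, Mtor -0.16 and Larp1 -0.27 (limma unadjusted p = 0.0878).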

How the data were processed

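RNA from 8 libraries was prepared by the submitters with a TruSeq kit after TRIZOL extraction. Per the labels and the study's methods, reads were demultiplexed with CASAVA 1.8, aligned to mm10 (GRCm38) with TopHat2 and Bowtie2 2.2.1, counted over RefSeq transcripts, normalized with DESeq2 and corrected for clone in Partek 6.6, with transcripts of low group mean removed. The deposited values are therefore a normalized, clone-corrected signal and not counts, floored at 1. For 98.2% of transcripts, and for all 86 ribosomal protein genes, whole reads could be recovered as reads times a library factor plus a clone shift, which gave the depths. A depth of 5 to 16 reads in the lowest library limited Rpl3l, Rps29, Rpl39l, Rpl37 and Rps27.

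Log2(value + 1) was fitted with limma 3.58.1 (R 4.3.3), genotype and clone as terms, Benjamini-Hochberg adjusted over 13558 transcripts. Permutation tests were exact and two-sided. Scripts were tested on simulated data. Tables used Python 3.11.15, pandas 2.3.3, numpy 2.4.6, scipy 1.17.1 and matplotlib 3.10.9. The unit was found to be a signal, so the count test (voom) served as an alternative. Lengths, GC content and shared windows came from GENCODE M21, starts from RefSeq. The length and GC trend was a spline with 5 degrees of freedom per term, fitted in each library.

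The members and lists were chosen with earlier results of these data known. Genes were named as the 10 smallest unadjusted p, the 5 largest rises and falls, the 5 highest and 5 lowest means, a list by role, and in each other list the extremes and a few named regulators. Rpl26l1 was not analysed here, and some genes that the rules name are not reported here. Genes outside these rules (Rps15, Rpl27a, Rpl18, Rpl9, Rps2, Rps4l, Rps15a, Rps20, Eef1g and the flagged Rpl31 and Rpl38) were named after their values were seen. Alternatives were another pseudocount, scaling, filter, prior, clone handling, linear values, voom, the replicate block by day, trend removal and leaving out each library. The pairing by day came from the labels. With the clone correction undone, same-day KO and WT libraries had correlated deviations over all transcripts (r = 0.58 to 0.71), and other pairs had a median of -0.21. On the deposited values the same-day r over all transcripts ran from -0.11 (day 5) to 0.6. Over 81 of the ribosomal protein genes, with the correction undone, the same-day r was only 0 to 0.52. Other pairs had -0.33 to 0.39 for these genes, so the family itself showed little pairing by day.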

Additional observations from a re-analysis of the deposited data

Results flagged for a closer look

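In groups of 4 libraries, one library stood apart from the other libraries by Dixon's criterion in 9 of the 176 groups examined (5.1%), which is close to the 5% that chance gives. In KO replicate 1 these were Rpl31 (385 normalized read counts, others 322 to 327), Rpl9 (394, others 222 to 248) and Rps16 (1458, others 1276 to 1294). In KO replicate 3 it was Rpl37a (269, others 288 to 291). In WT replicate 3 they were Rpl38 (328, others 253 to 264) and Rps27 (31.9, others 45.1 to 47.1). WT replicate 1 was high for Rpl39l (153, others 59.8 to 75.7), and WT replicate 4 was low for Rplp2 (99.7, others 131 to 137). The median deviation of the whole family was lowest in WT replicate 2 (-0.136 on the log2 scale, others -0.08 to -0.07), the library with the fewest reads.

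The interaction of genotype and clone was -4.08 on the log2 scale for Rpl39l (limma unadjusted p = 0.00249) and -1.43 for Rpl3l (limma unadjusted p = 0.015). Both rest on KO replicate 4, the single KO library of clone 1, so that the clone and that library cannot be told apart. Both were also fitted to the clone-corrected values, and for Rpl39l the correction had lowered the value of that library. The lowest recovered read counts of these genes over all libraries were 6 and 5, and 2.59% of all transcripts had such an interaction p under 0.05, close to the share of 2 in the 86 genes.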

How the results depend on the processing

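The direction of the family held under all 23 alternative settings, with 59 to 81 genes higher in KO, counted over the 86 genes or, in 1 setting, over those with a mean of at least 50, and 0 genes had an adjusted p under 0.05 in any of them. The median log2 fold change, 0.182, was 0.052 with the length and GC trend removed, 0.083 with the trend removed and the replicate block by day, and 0.183 with the block alone. The trend also took the difference in the share of values from 0.340 to 0.109 percentage points. Undoing the clone correction gave 9 genes without overlap in place of 19 and 4 interactions in place of 2. The count of genes with an unadjusted p under 0.05, 15 (14 higher in KO), was 4 (2 higher) with the trend removed, 7 (6 higher) with the trend removed and the block, and 6 (5 higher) in the same 6 libraries without the block. On untransformed values 22 were higher. With the block 17 had such a p. Genes past the 1.5-fold criterion were 2 in place of 1 in the 6 libraries, with the block, without it, and with the block and the clone correction undone, and 2 with the trend removed. That count was 0 on untransformed values and 0 without the clone term. Leaving out each library gave 4 to 17 genes with such a p (4 to 16 higher), 0 to 5 past the criterion. Interactions were 2 to 7, the 7 without WT replicate 3, and could not be fitted without KO replicate 4. The share of all transcripts was not determined for the fits that left out a library or for the 6 libraries without the block. Nor was it for the criterion and interaction counts of the alternative settings. The causes were not tested.

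For the named genes, 835 of the alternative values kept direction and side of the threshold, 83 lost and 10 gained an unadjusted p under 0.05, and 56 changed sign, all with an unadjusted p above 0.05 in the alternative. With the trend removed, Rpl8 had -0.005, Rps29 -0.176, Rps12 -0.099, Rpl11 -0.067, Rps6 -0.011, Rps14 -0.011, Rps27a -0.047, Rps4x -0.042, Rpl22l1 0.016, Rpl36al -0.105, Rpl26 -0.04 and Rps19bp1 -0.036. With the trend removed and the block, Rps29 had -0.225, Rps19 -0.029, Rps6 -0.025, Rps4x -0.048, Rpl22l1 0.108, Rpl36al -0.191 and Rps19bp1 -0.079. With the block, and in its 6 libraries without it, Rps29 had -0.025, Rpl5 -0.027, Rps4x -0.053 and Rpl36al -0.097. With the block and the clone correction undone, they had -0.066, -0.025, -0.064 and -0.099. When single libraries were left out, the values ran from -0.155 to 0.298 for Rpl11, -0.182 to 0.246 for Rpl22l1, -0.095 to 0.158 for Rpl36al, -0.261 to 0.231 for Rpl37, -0.036 to 0.096 for Rpl5, -0.2 to 0.047 for Rpl7, -0.028 to 0.084 for Rpl7l1, -0.069 to 0.27 for Rps12, -0.015 to 0.277 for Rps19bp1, -0.348 to 0.059 for Rps27, -0.004 to 0.107 for Rps27a, -0.209 to 0.231 for Rps29 and -0.053 to 0.187 for Rps4x. The 2 alternatives with the 6 libraries without the block, and with the clone correction undone and the block, were chosen after the data were seen. Low depth limits Rpl3l, Rps29, Rpl39l, Rpl37 and Rps27.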
